A study of Mus musculus with 8 samples.

Results

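Genes of the extracellular matrix, of its integrin receptors and of the proteases that cut it were followed in quiescent neural stem cells (qNSCs) treated with bafilomycin A (BafA). Members were chosen by gene symbol alone: collagens (Col), laminin chains (Lama, Lamb, Lamc), integrin subunits (Itga, Itgb), matrix metalloproteinases (Mmp), their tissue inhibitors (Timp) and secreted ADAMTS proteases (Adamts), each followed by a digit. Of 114 such genes on the array, 101 had a value on all 8 arrays, out of 14722 named genes that did, and the brightest probe stood for each gene. The 101 members comprise 33 collagens, 8 laminin chains, 10 integrin alpha and 7 integrin beta subunits, 18 MMPs, 4 TIMPs and 15 ADAMTS proteases. The other 6 share only the letters of the symbol: Col4a3bp, Itgb1bp1, Itgb1bp2, Itgb1bp3, Itgb3bp and Itgb4bp. They stay in the counts of the 101 members but belong to no family. The 13 genes without a value on every array, Mmp9 and Itga4 among them, reached at most 3.2 in the deposited table, whose median is 25.

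The cells were 1 NSC line, derived from the embryonic ventral telencephalon of ICR mice and passaged, which had spent several days in quiescence medium. That medium contains BMP4 and bFGF but no EGF, and laminin is added to the culture medium in which the line is passaged. All 4 groups then received quiescence medium, either plain (control) or with 20 nM BafA, an inhibitor of the proton pump that acidifies lysosomes, for 4 h or 24 h. Each group has 2 single-colour arrays, and no source used here says that they come from separate cultures. The p-values thus cover no more than the spread between the arrays of a group, and this spread may be technical.

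Collagens and laminins form the fibres and the basement membrane around cells, and integrins, each a pair of 1 alpha and 1 beta subunit, hold cells to them. MMPs and ADAMTS proteases cut matrix proteins, and TIMPs block the MMPs. In the brain, neural stem cells touch laminin-rich basement membrane in their niche and bind it through integrins.

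Levels below are normalized signals: spot signals corrected for background with a fixed offset and scaled so that the median probe of each array reads 25. The offset raises dim probes, so that log2 differences of dim genes come out smaller than in the deposited values. The deposited level was under 25 for 61 of the 101 members and at least 100 for 18. Fewer cells of a type and less RNA per cell cannot be told apart in such bulk RNA. All 7 markers of the neural stem cell list were measured, with deposited means from 76 (Hes5) to 20500 (Vim). In the mural and fibroblast list Dcn, Lum and Fbln1 had means of 3.70, 5.21 and 4.06, while Twist1, Pdgfrb and Prrx1 had means of 91.3, 31.4 and 19.9. Of the mural and fibroblast list, 10 of 12 genes were measured, and 1 of them, Acta2, carried most of the summed level, which was 2530 to 3201 in controls and 2926 to 3339 with BafA at 4 h. At 24 h the sum was 618 to 634 in controls and 215 to 238 with BafA. At that time the 7 astrocyte markers summed to 26561 to 30646 in controls and 11278 to 11909 with BafA (1 higher, 5 lower), and the 5 neuron markers measured to 512 to 616 and 127 to 135 (1 higher, 4 lower). The neural stem cell list summed to 40021 to 40308 and 38749 to 43158 (2 higher, 3 lower). Most of this sum was Vim (18970 to 20990 and 14420 to 16880) and Fabp7 (16690 to 17630 and 20410 to 22500). Of the dimmer genes, Nes read 85.1 to 86.1 and 427.7 to 439.7, and Prom1 342.9 to 423.1 and 160.4 to 168.5. The 5 oligodendrocyte lineage genes measured summed to 3850 to 4548 and 4972 to 5508 (1 higher, 1 lower). Of 6 endothelial genes listed 2 were measured, with sums of 28 to 33 and 76 to 79 (1 higher, 0 lower). Nearly all of these sums was Kdr (25.9 to 31.8 and 73.3 to 77.5), while Cdh5 had a mean of 2.29. The part of these lists in the results was not tested. The scanner gain of both arrays numbered 1 of the control groups differed from that of the other 6, and BafA groups hold no array of that setting.

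At 4 h few matrix genes responded to BafA. Of the 101 members, 3 rose (Adamts1, Itga5 and Col4a3bp) and 1 fell (Adamts15) at an adjusted p under 0.05 in limma. Of all 20473 probes 2.23% were called, 1.13% higher and 1.09% lower. The members' median log2 difference was 0.012, the same as over all probes. Of the 4, Adamts1 alone stayed past the threshold whichever of the 8 arrays was left out.

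Adamts1 encodes a secreted protease that cuts the proteoglycans aggrecan and versican. Its normalized signal was 58.5 and 56.3 on the control arrays and 192 and 197 on the BafA arrays of 4 h. At 24 h it was 101 and 129 in controls against 421 and 466 with BafA. The BafA arrays lay far above the controls at both times, with a log2 difference of 1.76 ± 0.15 (SE, adjusted p = 5.45e-08) for the early time and 1.96 ± 0.15 (adjusted p = 3.7e-10) for the late one. In the deposited values the rise was 4.10-fold and 4.27-fold. The effects at the 2 times differed by 0.20 ± 0.22 (adjusted p = 0.707).

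The other calls at 4 h were small and close to the detection level. Itga5, the alpha subunit of the fibronectin receptor, read 18.3 and 18.4 in controls and 21.3 and 22 with BafA, a rise of 0.24 ± 0.06 (adjusted p = 0.0192). That call was lost on leaving out any 1 of these 4 arrays, with adjusted p between 0.0705 and 0.242. Adamts15, a further proteoglycan-cutting protease, fell by 0.27 ± 0.06 (adjusted p = 0.017), a call lost without control array 1 of 4 h (adjusted p = 0.273), BafA array 2 of 4 h (0.0922) or either BafA array of 24 h (0.0549 and 0.0546). Adamts8 read 291 and 264 in controls and 204 on each BafA array at 4 h, with no overlap, but its difference of -0.44 ± 0.13 missed the threshold (adjusted p = 0.0825), which it passed without control array 1 (0.0494) or 2 (0.049) of 24 h.

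At 24 h the matrix genes moved in both directions. With BafA, 17 members rose and 23 fell, 16.8% and 22.8% of the 101, where 27.3% of all probes were called, 14.6% higher and 12.8% lower. Without the genes matched by letters alone, 14 of 95 rose and 23 fell (14.7% and 24.2%). The shares over all probes are the background for each family below too, and no family was tested as a set. Among the 40 members with a deposited level of at least 25, 9 rose and 15 fell (22.5% and 37.5%), beside 21% and 17.3% of all probes of that brightness. The median difference of the members was -0.003, against 0.021 over all probes. Of the 40 calls, 9 rises and 13 falls held whichever array was left out, and these 22 also held on the 6 arrays of 1 scan setting and in a fit with that setting as a block. Col4a3bp and Itgb1bp3, matched by letters alone, are among these rises. With the local background of each spot subtracted, 0 members passed at either time (1 at 4 h and 13 at 24 h at an unadjusted p under 0.05), and the difference at 24 h was then 1.66 for Adamts1 (adjusted p = 0.194) and -2.88 for Mmp11 (adjusted p = 0.0701).

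Among the MMPs 3 rose and 3 fell of 18, with Mmp11 showing the largest fall of all members. Mmp11 encodes stromelysin-3, a secreted protease that is activated inside the cell by furin. Its signal was 359 and 553 on the control arrays of 24 h and 38.3 and 32.3 on the BafA arrays, a log2 difference of -3.66 ± 0.25 (adjusted p = 2.51e-11), which is 19.3-fold lower in the deposited values. At 4 h the arrays overlapped, at 599 and 286 in controls and 438 and 593 with BafA, with a difference of 0.30 ± 0.25 (adjusted p = 0.86). On the 6 arrays of 1 scan setting, where only control array 2 of 4 h remains, that difference became 0.84 (adjusted p = 0.0126).

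Mmp14, a membrane-bound collagenase that also activates pro-MMP2, read 73.2 and 59.0 in controls and 35.7 and 33.2 with BafA at 24 h. It fell by 0.93 ± 0.11 (adjusted p = 2.27e-07), after values between 45.8 and 49.2 on all 4 arrays of 4 h. Mmp2 itself stayed near the blank spots, with a deposited mean of 4.24 and a difference of -0.02 at 24 h (adjusted p = 0.826). Mmp3, stromelysin-1, went the other way. It read 15.1 and 15.6 in the 24 h controls and 26.7 and 33.5 with BafA, a rise of 0.96 ± 0.08 (adjusted p = 1.52e-09), and 26.5 to 27.6 on the 4 arrays of 4 h. Thus its 24 h controls were the low samples, and the BafA arrays of 24 h lay in the range of 4 h or above it.

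Differences in the rest of the family were small, but only 4 of the 18 MMPs had a deposited level of at least 25. The offset shrinks the differences of dimmer genes, so that a lack of response cannot be read for those. Mmp17, a membrane-anchored MMP, rose by 0.28 ± 0.06 (adjusted p = 0.000495). Mmp25 (0.19) and Mmp24 (-0.18) passed the threshold at adjusted p of 0.00569 and 0.0427 but lost it without BafA array 1 of 24 h (0.059 and 0.385), as did Mmp25 without control array 1 (0.104) and Mmp24 without control array 2 (0.142) of that time. Mmp15, a membrane-bound relative of Mmp14, differed by -0.06 (adjusted p = 0.651).

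Mmp3 lies in a cluster of MMP genes on chromosome 9, in the RefSeq order Mmp13, Mmp12, Mmp1b, Mmp3, Mmp10, Mmp8 and Mmp7. Of these 7, Mmp3 was the only one called at 24 h, and the other 6 had log2 differences from 0.004 (Mmp12) to 0.126 (Mmp13), the latter called without BafA array 2 of 24 h (adjusted p = 0.0223). The promoter windows of RefSeq (build GRCm38.p6, from 250 bases before to 50 after each start) were searched on both strands for TGANTCA, the letters that AP-1 factors bind, and for TCACGTG, which MiT/TFE factors bind. The end of the first and the start of the second share the letters TCA, so that matches may overlap. TGANTCA is found in 7.81% of 32851 windows and TCACGTG in 3.77%. Of the members, 66 matched to 72 windows, of which 9 hold TGANTCA (12.5%) and 0 hold TCACGTG. Of the 7 cluster genes 6 hold TGANTCA, and of the 7 other MMP genes with a window 0 do. Of the 6 that hold it, Mmp3 had a deposited mean of 24.7. The other 5 stayed near the blank level, with means of 2.18 to 6.45, so that no response or lack of one can be read for them. The 6 stretches are shown because neighbouring genes share these letters, with the motif in capitals, 5′ to 3′ on the strand of the gene.
Mmp13: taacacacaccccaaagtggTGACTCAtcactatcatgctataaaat
Mmp12: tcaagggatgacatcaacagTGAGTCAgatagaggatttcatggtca
Mmp1b: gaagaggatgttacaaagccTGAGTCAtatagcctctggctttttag
Mmp3: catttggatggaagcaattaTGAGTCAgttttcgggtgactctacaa
Mmp10: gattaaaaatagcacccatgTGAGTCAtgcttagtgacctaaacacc
Mmp7: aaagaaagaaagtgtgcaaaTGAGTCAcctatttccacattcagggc

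These stretches lie at chr9:7272459-7272505 (Mmp13), chr9:7347310-7347356 (Mmp12), chr9:7445756-7445802 (Mmp3), chr9:7502259-7502305 (Mmp10) and chr9:7692007-7692053 (Mmp7) on the plus strand. The stretch of Mmp1b lies at chr9:7388093-7388139 on the minus strand. The motif starts 35 bases before the gene's start in Mmp13, 44 in Mmp12, 46 in Mmp3, 63 in Mmp10 and Mmp7 and 93 in Mmp1b. A match describes these letters only, and binding was not measured.

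Of the inhibitors, Timp4 and Timp2 moved in opposite directions. Timp4, the TIMP best known from heart and brain, read 17.4 to 18.8 on all 4 arrays of 4 h. It was 544 and 528 in the controls of 24 h and 1505 and 1916 with BafA. The BafA arrays exceeded both controls, a rise of 1.66 ± 0.15 (adjusted p = 3.06e-09). The control level was itself called higher at 24 h than at 4 h, by 4.93 ± 0.15 (adjusted p = 6.08e-17), or 111-fold in the deposited values. The level at 4 h was near that of the blank spots (deposited means of 9.55 and 11.3), so that the size of this change depends on the offset. Timp2, which both inhibits MMP2 and helps Mmp14 to activate it, read 460 and 431 in controls and 212 and 282 with BafA at 24 h, a log2 difference of -0.86 ± 0.17 (adjusted p = 0.000256).

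Timp1 was the 1 called member whose arrays overlapped at 24 h. It read 292 and 608 in controls and 583 and 731 with BafA, a rise of 0.63 ± 0.23 (adjusted p = 0.0422). The call was lost without control array 1 of 24 h (adjusted p = 0.882), without either BafA array of 24 h (0.066 and 0.331) or without either control array of 4 h (0.0623 and 0.0616), as well as with the scan setting as a block (0.242). Without control array 2 of 24 h, in turn, the rise was 1.16. Timp3, which binds to the matrix and also inhibits ADAMTS proteases, read 433 and 385 against 344 and 264, and its difference of -0.44 ± 0.20 missed the threshold (adjusted p = 0.126).

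Besides Adamts1, Adamts14 rose among the 15 ADAMTS genes at 24 h, and 4 fell. Adamts8, another aggrecan-cutting protease, read 58.6 and 56.3 in controls and 26.4 and 26.1 with BafA, a log2 difference of -1.13 ± 0.13 (adjusted p = 1.85e-07). Its neighbour Adamts15, the next gene on chromosome 9, fell by 0.29 ± 0.06 (adjusted p = 0.00101), as it had at 4 h, and by 0.18 without control array 2 of 24 h (adjusted p = 0.0399). Adamts5, the aggrecanase next to Adamts1 on chromosome 16, fell by 0.20 ± 0.06 (adjusted p = 0.0148), so that this pair of neighbours moved in opposite directions. The calls of Adamts5, Adamts14 (0.20, adjusted p = 0.0169) and Adamts16 (-0.23, adjusted p = 0.0372) were all lost without either BafA array of 24 h, with adjusted p between 0.0576 and 0.201, and those of Adamts5 and Adamts16 also without control array 1 of 24 h (0.0767 and 0.232). Adamts4, an aggrecanase as well, differed by -0.20 ± 0.12 (adjusted p = 0.232), but by -0.44 without control array 1 of 24 h (adjusted p = 0.00129), and it was also called with the scan setting as a block (-0.31, adjusted p = 0.0406).

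**Figure D1:**
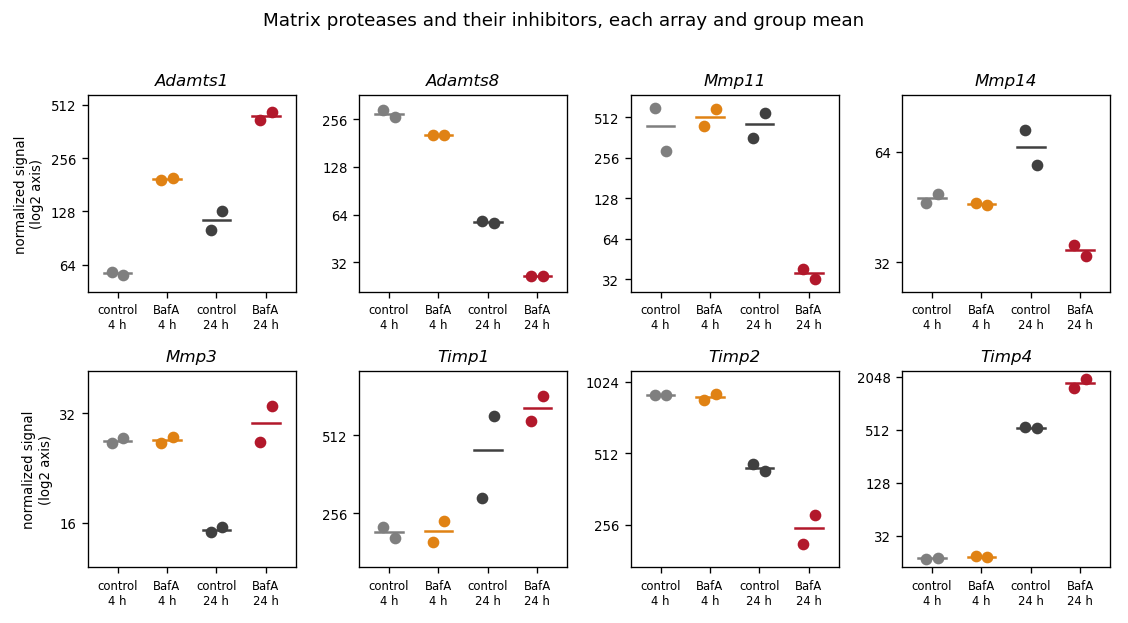
Normalized signal (log2 axis) of 8 protease and inhibitor genes in control and BafA-treated qNSCs at 4 h and 24 h. Points are arrays and bars are means of 2 arrays. Adamts1 is higher with BafA at both times, Mmp11 drops from 359 and 553 to 38.3 and 32.3 at 24 h, and the Timp1 arrays of 24 h overlap.

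Integrin subunits changed in a few members each. Of 7 beta subunits 2 rose at 24 h (Itgb5 and Itgb2) and 0 fell, and of 10 alpha subunits 1 rose (Itga7) and 3 fell (Itga2, Itga6 and Itga2b). Itgb5, which pairs with the alpha v subunit to bind vitronectin, read 36.2 and 33.5 in the 24 h controls and 95.7 and 94.4 with BafA. That is a rise of 1.45 ± 0.15 (adjusted p = 3.78e-08), or 3.77-fold in the deposited values. At 4 h the arrays of Itgb5 overlapped between 133 and 183. The gene of its partner, Itgav, has no digit in its symbol and is no member, and it rose by 0.79 ± 0.13 (adjusted p = 2.64e-05).

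Of the laminin receptors, the 2 alpha subunits went apart. Itga7 read 189 and 205 in controls and 363 and 308 with BafA at 24 h, a rise of 0.77 ± 0.16 (adjusted p = 0.000605). Itga6 read 97.5 and 101 in controls and 53.1 and 67.1 with BafA, a log2 difference of -0.74 ± 0.14 (adjusted p = 0.00015). Itgb1, the beta subunit that both pair with and the brightest integrin probe, read 500 and 467 in controls and 504 and 601 with BafA (0.19 ± 0.16, adjusted p = 0.475). Itga3, the third laminin-binding alpha subunit named here, differed by 0.03 (adjusted p = 0.861).

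The collagen receptor subunit Itga2 read 30.0 and 22.2 in the 24 h controls and 16 on each BafA array, a log2 difference of -0.69 ± 0.08 (adjusted p = 5.53e-07). The 4 arrays of 4 h lay between 15.8 and 16.8, so that the controls of 24 h were the only high samples. Its neighbour Itga1, also a collagen receptor, differed by 0.118 and was not called. Itga5, called at 4 h, differed by 0.13 at 24 h (adjusted p = 0.092), and Itgb3, a partner of the alpha v subunit, by -0.10 (adjusted p = 0.502).

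Itgb2, the beta subunit of leukocytes, was near the blank spots (deposited mean 4.49) and rose by 0.15 ± 0.05 (adjusted p = 0.0316). The platelet subunit Itga2b fell by 0.31 ± 0.09 (adjusted p = 0.00861). Of the microglia list, 5 of 7 genes were measured, and their summed deposited level was 206 to 289 in the 24 h controls and 1117 to 1271 with BafA. Most of that sum was Cd68, a lysosomal protein with a mean of 407, while Cx3cr1 and P2ry12 had means of 2.12 and 2.36, and the part of this list in the result was not tested. Both calls depended on single arrays: Itgb2 lost its call without any 1 of the 4 arrays of 24 h (adjusted p 0.0596 to 0.161), and Itga2b without control array 2 (0.426) or either BafA array of 24 h (0.0573 and 0.135), while without control array 1 of 24 h its difference was -0.54.

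Of the 8 laminin chains 2 rose and 2 fell at 24 h. Lamc1, the gamma chain of most laminins, read 181 and 185 in controls and 106 and 116 with BafA, a log2 difference of -0.72 ± 0.16 (adjusted p = 0.00113). The change of Lamc1 held whichever array was left out, whereas those of the other 3 did not. Lamb2, a beta chain, read 569 and 402 against 353 and 325, a log2 difference of -0.50 ± 0.18 (adjusted p = 0.0396) that was lost without control array 1 of 24 h (adjusted p = 0.556), either BafA array of 24 h (0.0706 and 0.178) or either control array of 4 h (0.0536 and 0.0532), and was -0.75 without control array 2 of 24 h.

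Of the alpha chains, which carry the integrin-binding domains, Lama3 and Lama5 had deposited levels of at least 25. Lama3 differed by -0.05 (adjusted p = 0.739). Lama5 read 41.7 and 35.8 in controls and 50.6 and 48.1 with BafA, a rise of 0.35 ± 0.10 (adjusted p = 0.0125), lost without control array 2 (0.122) or BafA array 1 (0.102) of 24 h. Lama2 rose by 0.16 ± 0.05 (adjusted p = 0.0342), lost without the first control array (0.268) or either BafA array of 24 h (0.069 and 0.196). Lama1 and Lama4 were not called, at differences of 0.05 and 0.03 (adjusted p = 0.674 and 0.769).

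Among the 33 collagens 2 rose and 10 fell at 24 h, 6.06% and 30.3%, beside 14.6% and 12.8% of all probes. Their median difference was -0.038. Of the 10 falls, those of Col16a1, Col6a1, Col9a3, Col1a1 and Col4a2 held whichever array was left out. By class, 1 rose and 1 fell of 11 fibrillar collagens, 0 rose and 2 fell of 5 basement membrane collagens, and 1 rose and 7 fell of the 17 others. Of the 33, 11 had a deposited level of at least 25. Col16a1, a collagen that sits at the surface of other fibrils, showed the largest fall. It read 217 and 228 in controls and 81.9 and 74.0 with BafA, a log2 difference of -1.51 ± 0.14 (adjusted p = 5.32e-09), or 3.16-fold in the deposited values.

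Col6a1, a chain of the microfibrillar collagen that links cells to fibres, read 79.1 and 135 in controls and 45.6 and 45.4 with BafA, a log2 difference of -1.18 ± 0.16 (adjusted p = 3.47e-06). Its neighbour on chromosome 10, Col6a2, encodes another chain of the same trimer and fell by 0.28 ± 0.09 (adjusted p = 0.0169). Without control array 1 of 24 h that difference was -0.46, and the call was lost without control array 2 (-0.10, adjusted p = 0.399) or either BafA array of 24 h (0.155 and 0.0803). Col9a3, a chain of a collagen known from cartilage, read 124 and 93.3 in controls and 55.8 and 55.7 with BafA, a log2 difference of -0.95 ± 0.14 (adjusted p = 6.57e-06). In Col6a1 and Col9a3 no BafA array reached the level of a control array of 24 h.

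Col1a1, the main chain of type I collagen, read 32.8 and 36.9 in the 24 h controls and 19.7 and 19.4 with BafA. It fell by 0.83 ± 0.07 (adjusted p = 9.76e-10), with 19.0 to 20.5 on the 4 arrays of 4 h. The second chain of the type I trimer, Col1a2, was dim (deposited mean 12.9) and differed by 0.02 (adjusted p = 0.866), and Col3a1 by 0.00 (adjusted p = 0.982). Of the fibrillar collagens Col5a3, a minor chain of type V collagen, was the 1 that rose: 46.3 and 37.8 in controls against 74.2 and 66.0 with BafA (0.74 ± 0.11, adjusted p = 5.43e-06). The other rise, of Col20a1, was 0.16 ± 0.06 (adjusted p = 0.0498) and was lost on leaving out 7 of the 8 arrays (adjusted p 0.0506 to 0.211). It held only without control array 1 of 24 h.

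In the basement membrane class Col4a5, the brightest collagen, read 369 and 336 in controls and 227 and 269 with BafA. The difference of -0.51 ± 0.16 (adjusted p = 0.0198) was lost without control array 1 of 24 h (adjusted p = 0.154) or BafA array 1 (0.13). Col4a2 read 23.6 and 19.5 against 16.4 and 15.8, a log2 difference of -0.41 ± 0.08 (adjusted p = 0.000339) that held in every such refit and was -0.27 without control array 1 of 24 h. Col4a1, which shares the type IV trimer with it and lies head to head with it on chromosome 8, differed by 0.01 (adjusted p = 0.912) at a deposited mean of 9.30. The rest of the 10 falls were those of Col8a2, Col17a1 and Col23a1, with differences of -0.39, -0.17 and -0.29. These calls were lost without control array 1 of 24 h for Col8a2 (adjusted p = 0.0518), without BafA array 2 of 24 h for Col23a1 (0.0521) and on leaving out any array but those of the 4 h controls for Col17a1 (0.0538 to 0.18).

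**Figure D2:**
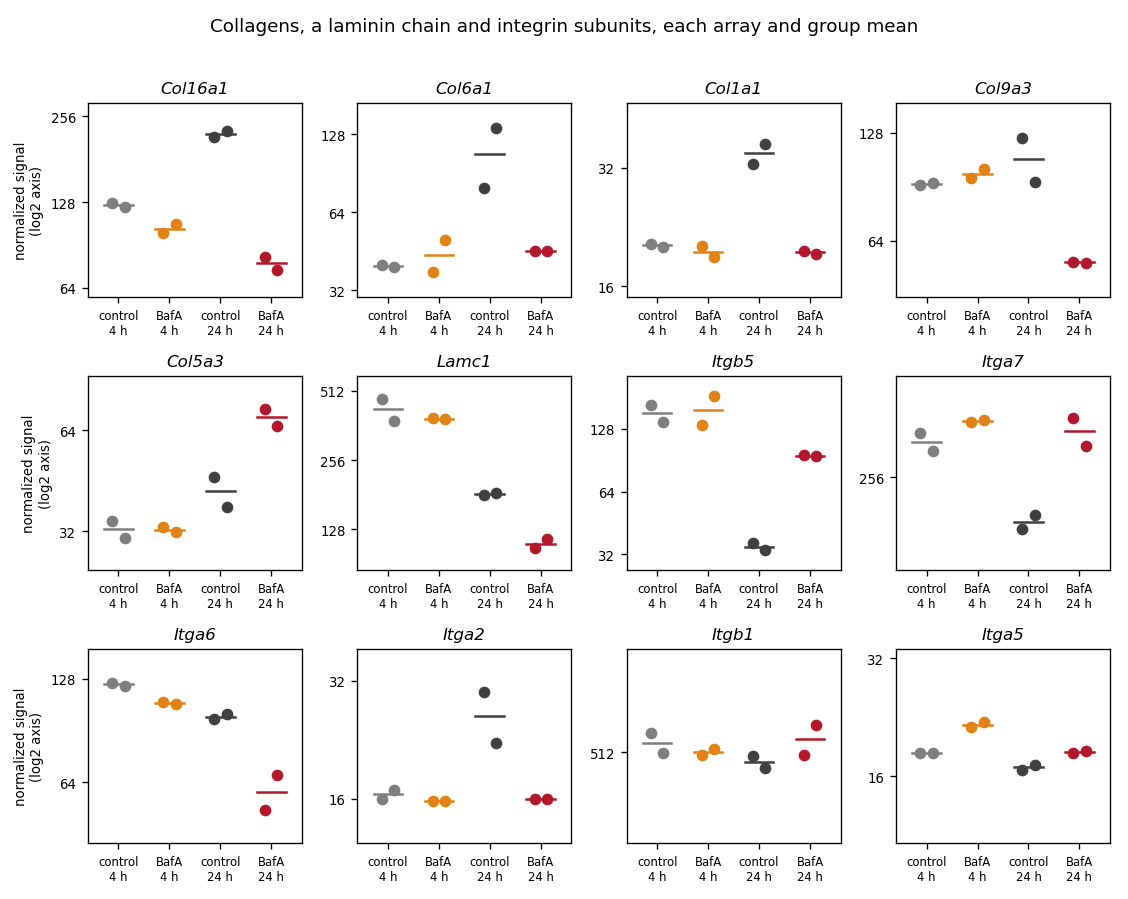
Normalized signal (log2 axis) of 5 collagens, the laminin chain Lamc1 and 6 integrin subunits in control and BafA-treated qNSCs at 4 h and 24 h. Points are arrays and bars are means of 2 arrays. For Col1a1, Col6a1 and Itga2 the controls of 24 h stand above the other 6 arrays, for Itgb5 and Itga7 they stand below.

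Of the 6 genes matched by letters alone, 3 rose at 24 h and 0 fell. Col4a3bp encodes a ceramide transporter, read 21.2 and 22 in controls and 25.8 and 27.1 with BafA at 4 h, and rose by 0.29 ± 0.07 (adjusted p = 0.0258). That call was lost on leaving out any 1 of the 4 arrays of 4 h (adjusted p 0.0796 to 0.354) or of the BafA arrays of 24 h (0.0543 and 0.055). Its rise at 24 h, 0.44 ± 0.07 (adjusted p = 2.74e-05), held in every such refit. Itgb1bp3, an enzyme that phosphorylates nicotinamide riboside, rose by 0.65 ± 0.08 at 24 h (adjusted p = 4.24e-07). Itgb4bp, a factor of ribosome assembly, rose by 0.43 ± 0.16 (adjusted p = 0.0462), a call lost on leaving out any of the 8 arrays (adjusted p 0.0555 to 0.27). Itgb1bp1, an inhibitor of integrin activation, differed by 0.29 ± 0.15 (adjusted p = 0.188).

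The effect of BafA changed between 4 h and 24 h for 15 members, upward for 5 and downward for 10, where 14.7% of all probes were called (7.38% upward and 7.3% downward). The difference of the effects was tested in the same fit. It was -3.96 ± 0.35 for Mmp11 (adjusted p = 1.03e-08), -1.30 ± 0.23 for Col6a1 (adjusted p = 0.000222) and -1.24 ± 0.20 for Col16a1 (adjusted p = 5.5e-05). Upward it was 1.59 ± 0.21 for Timp4 (adjusted p = 4.57e-06), 1.40 ± 0.21 for Itgb5 (adjusted p = 2.91e-05) and 0.96 ± 0.12 for Mmp3 (adjusted p = 1.53e-06). Itga6, Itga7 and Lamc1 were called at 24 h but not at 4 h. In the main fit their effects at the 2 times were not shown to differ (adjusted p = 0.0514, 0.0882 and 0.0858). This depended on the processing. The difference passed for each in the deposited values (0.0294, 0.0362 and 0.0248), with an offset of 16 (0.0373, 0.0454 and 0.0406) and without the variance trend (0.0499, 0.0304 and 0.0443). With quantile normalization it passed for Itga6 (0.0461) and Lamc1 (0.0347). With the local background subtracted no member passed. Without BafA array 2 of 24 h the difference was -0.73 for Itga6 and 0.71 for Itga7, against -0.56 and 0.59 in the main fit.

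**Figure D3:**
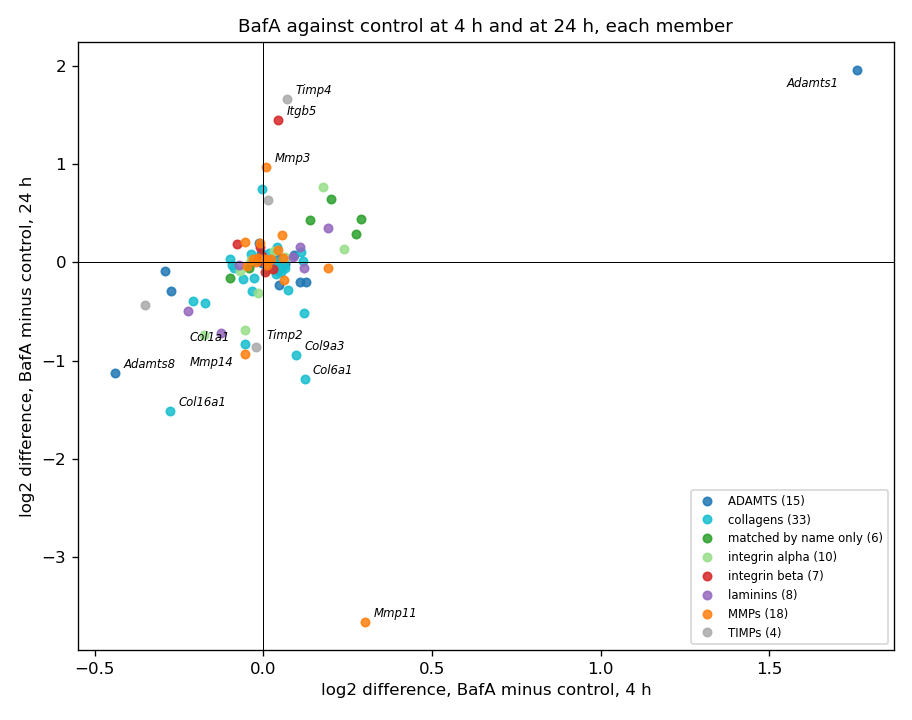
Log2 difference between BafA and control at 4 h (horizontal) and at 24 h (vertical) for each of the 101 members, coloured by family. Adamts1 stands alone at the upper right with 1.76 and 1.96, and Mmp11 lies lowest at 24 h (-3.66), while most other members lie close to 0 on the horizontal axis.

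Members also changed with time in quiescence medium without BafA, in a share close to that of all probes. Between the controls of 4 h and of 24 h 16 members rose and 18 fell, that is 34 of 101, where 33% of all probes were called (18.8% higher and 14.2% lower). By family, 6 collagens rose and 4 fell, 0 integrin beta subunits rose and 3 fell, and 2 ADAMTS genes rose and 4 fell. This comparison shares the controls of 24 h with that of BafA at 24 h, so that the values are given side by side only.

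Timp4 was the member with the largest change over time, followed by Adamts8, which fell by 2.27 ± 0.13 (adjusted p = 2.84e-12) from 291 and 264 to 58.6 and 56.3. Itgb5 fell by 2.12 ± 0.15 (adjusted p = 8.95e-11) from 166 and 138 to 36.2 and 33.5. Col6a1 rose by 1.37 ± 0.16 (adjusted p = 4.32e-07), Adamts1 by 0.99 ± 0.15 (adjusted p = 1.62e-05) and Col16a1 by 0.84 ± 0.14 (adjusted p = 3.99e-05). Of the 17 members called higher with BafA at 24 h, 6 were called higher over time and 4 lower. Of the 23 called lower with BafA, 7 were called lower over time and 6 higher. The members that follow are examples. For Adamts1 and Timp4 the change over time and the difference with BafA at 24 h were both upward. In Adamts8, Lamc1, Timp2 and Col4a2 both were downward. For Col16a1, Col6a1, Col1a1, Itga2 and Mmp14, in contrast, the control level went up with time and BafA arrays were lower. For Itgb5, Itga7 and Mmp3 it went down and BafA arrays were higher. On the 6 arrays of 1 scan setting the change over time was no longer called for Mmp14 (0.26, adjusted p = 0.117, against 0.46) or Itga7 (-0.55, adjusted p = 0.162, against -0.68), and that of Itga2 was 0.40 against 0.65 but still called.

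Some members changed with time but were not called for BafA. Mmp19, a secreted MMP, read 19.9 and 22.4 in controls of 4 h and 47.0 and 51.3 in those of 24 h, a rise of 1.22 ± 0.09 (adjusted p = 1.84e-10), with a BafA difference of 0.21 at 24 h (adjusted p = 0.0873) that passed without control array 2 (0.0136) or BafA array 1 (0.0449) of 24 h. Col5a1, a further chain of type V collagen, fell by 1.17 ± 0.11 (adjusted p = 1.53e-08) from 80.1 and 59.8 to 29.8 and 31.7. Its BafA difference at 24 h was -0.16 (adjusted p = 0.347).

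Other matrix genes, which are no members, were read from lists of the same pathway at 24 h. Of 21 genes of collagen processing and secretion 13 rose and 2 fell, with a median difference of 0.322 against 0.021 over all probes. The shares over all probes, 14.6% higher and 12.8% lower, are the background for these lists too, and no difference between lists was tested. P4ha1, the catalytic subunit of collagen prolyl hydroxylase, read 40.5 and 53.3 in controls and 121 and 137 with BafA, a rise of 1.47 ± 0.13 (adjusted p = 2.23e-09). Sec23a, a coat protein of the vesicles that leave the endoplasmic reticulum, rose by 1.45 ± 0.14 (adjusted p = 2.18e-08), and Plod2, a collagen lysyl hydroxylase, by 1.29 ± 0.09 (adjusted p = 7.53e-11). P4ha3 and Pcolce, an enhancer of procollagen cleavage, were the 2 that fell, by 0.91 ± 0.13 and 0.84 ± 0.07 (adjusted p = 3.76e-06 and 4.3e-10).

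Of 33 matrix glycoproteins 4 rose and 6 fell. Fn1, fibronectin, read 707 and 617 in controls and 1673 and 2070 with BafA, a rise of 1.49 ± 0.17 (adjusted p = 2.02e-07). Spp1, osteopontin, which like fibronectin and vitronectin is bound by integrins of the alpha v subunit, read 215 and 331 against 1213 and 1338, a rise of 2.25 ± 0.18 (adjusted p = 6.55e-10). Fbln5, an elastic fibre protein, fell by 1.88 ± 0.10 (adjusted p = 1.42e-13) and Tgfbi by 1.07 ± 0.10 (adjusted p = 1.03e-08). At 4 h 0 of the 33 rose and 2 fell: Ctgf, a secreted matricellular protein, by 0.57 ± 0.09 (adjusted p = 0.000255), and Ntn4, a laminin-related protein, by 0.37 ± 0.09 (adjusted p = 0.0301), the latter lost without control array 1 of 4 h (adjusted p = 0.438), BafA array 2 of 4 h (0.156) or either BafA array of 24 h (0.105 each).

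Of 31 proteoglycan and hyaluronan genes 2 rose and 9 fell. The small leucine-rich proteoglycans Bgn and Fmod, which bind collagen fibrils, showed the largest falls, by 2.05 ± 0.08 and 1.74 ± 0.07 (adjusted p = 1.29e-15 and 2.34e-15). Bgn read 111 and 113 in the 24 h controls and 27.9 and 26.2 with BafA, with no overlap. Hspg2, perlecan of the basement membrane, rose by 0.56 ± 0.06 (adjusted p = 9.68e-08).

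Inside the cell, 3 of 25 genes of integrin adhesion rose and 6 fell. Bcar1, a docking protein of focal adhesions, read 277 and 268 in controls and 110 and 113 with BafA, a log2 difference of -1.29 ± 0.15 (adjusted p = 4.13e-07), and Tln2, a talin that activates integrins, fell by 1.21 ± 0.11 (adjusted p = 1.05e-08). Ptk2, the focal adhesion kinase, rose by 0.56 ± 0.13 (adjusted p = 0.00182). Of 21 other matrix proteases and inhibitors 1 rose and 4 fell, with the largest falls in Adamtsl2 (-1.05 ± 0.08, adjusted p = 2.25e-10) and Htra1 (-0.77 ± 0.09, adjusted p = 2.09e-07).

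**Figure D4:**
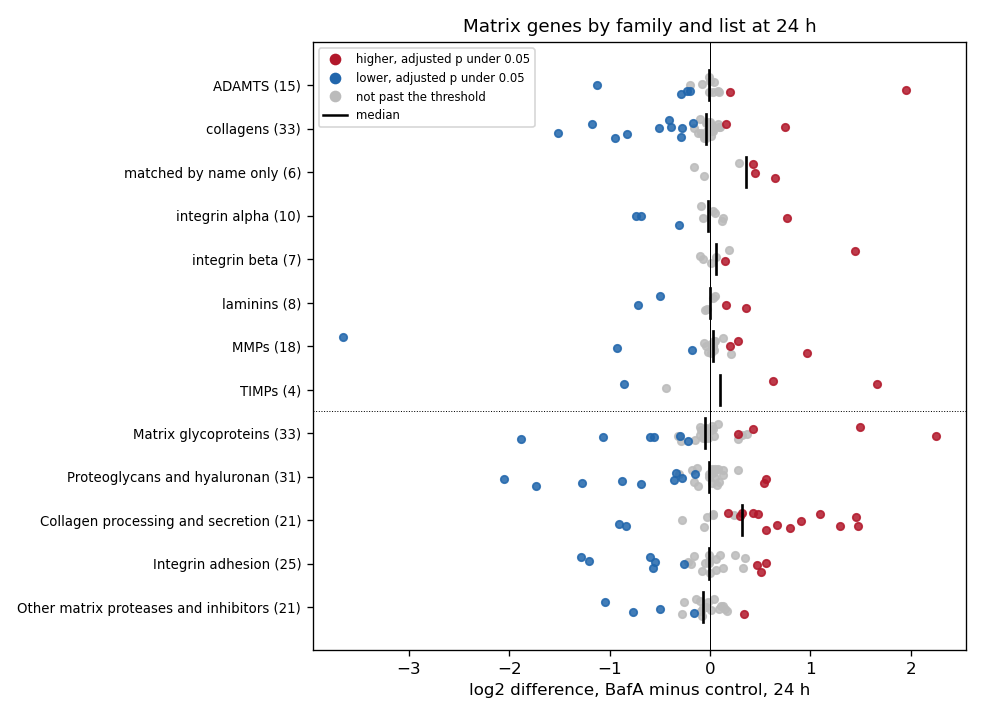
Log2 difference between BafA and control at 24 h for each member by family (above the dotted line) and for genes of 5 other matrix lists (below), with the number of genes in brackets. Red points rose and blue points fell at an adjusted p under 0.05, grey points did not pass and black bars are medians. Called collagens lie mostly left of 0 (2 rose, 10 fell) and called genes of collagen processing and secretion mostly right of it (13 rose, 2 fell). Of all probes 14.6% rose and 12.8% fell.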

How the data were processed

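RNA of 8 arrays (2 each of control and BafA-treated qNSCs at 4 h and 24 h) was analysed. The authors deposited the scanner output, spot intensity values on a linear scale that are not normalized, and 1 table of signal values. The deposited signal had been brought by the authors to a common median of 25 (global normalization, as the methods state) once the blank level was taken off, a step read from the values. Columns of fold change and significance in a supplementary table were not used. Columns without a sample numbered 0.

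The tests were run in limma 3.58.1 (R 4.3.3) on spot signals parsed in Python 3.11.15. Background was corrected with normexp (offset 50) on all spots without local background. After control spots were removed, arrays were set to the same median, 25, and converted to log2. Deposited values of spots that the scanner flagged were set to missing. Of 23473 probes, 20473 then had values on 8 of 8 arrays. These were fitted with 1 coefficient per group and eBayes with a variance trend, and p-values were adjusted by Benjamini-Hochberg over all of them. The fit has 4 residual and 19.3 prior degrees of freedom. It was tested on simulated data, drawn with independent spread on each array and without the difference in scan setting among the controls. The median spot was 1.57 to 1.72 times as bright as the blank spots, and 2 arrays a group limit the precision of every value.

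The members and the lists were chosen with earlier results of these data known. Named genes are, in each family and time, up to 4 called members with the largest rise and 4 with the largest fall whose BafA arrays lie on 1 side of the controls, up to 3 in each direction for the difference of the effects, the 2 brightest members of a family, a fixed set of well-known members, and up to 3 called genes in each direction of the other lists. Members named besides these (Col5a1, Col6a2, Col8a2, Col17a1, Col23a1, Itga1, Lama3, Mmp19 and the other genes of the Mmp3 cluster) were chosen after their values were seen. Same-numbered arrays of control and BafA deviated with correlations of -0.22 at 4 h and 0.05 at 24 h, and the main fit does not pair them. Control arrays also differ in scan setting, so that these correlations cannot decide whether the numbers pair arrays. At 4 h the replicate block called 3.77% of all probes, the main fit 2.23% and crossed pairing 0.869%. Alternatives were the deposited table, quantile normalization, local background, an offset of 16, no variance trend, a filter at 25, all probes of a gene, the replicate block, the scan setting, the methods' t-test and leaving out each array.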

Additional observations from a re-analysis of the deposited data

Results flagged for a closer look

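For 15 of the 101 members the effect of BafA at 24 h differed from that at 4 h by a test of the difference itself (limma, adjusted p under 0.05). Over all probes 14.7% were called in this test, a share close to that of the members. Itgb1bp3, among the 15, is matched by letters alone. The difference on the log2 scale was -3.96 for Mmp11, -1.30 for Col6a1, -1.24 for Col16a1, -1.04 for Col9a3, -0.88 for Mmp14, -0.84 for Timp2, -0.78 for Col1a1, -0.69 for Adamts8, -0.64 for Itga2 and -0.33 for Adamts5. It was 1.59 for Timp4, 1.40 for Itgb5, 0.96 for Mmp3, 0.74 for Col5a3 and 0.45 for Itgb1bp3. The effect of Adamts8 ran the same way at both times and was larger at 24 h. Of the 15, 12 held whichever array was left out. The difference of Timp2 was lost without control array 1 of 4 h (adjusted p = 0.0591), control array 2 of 4 h (0.0540), BafA array 2 of 4 h (0.0532) or BafA array 1 of 24 h (0.0622). That of Adamts5 was lost without control array 2 of 4 h (0.0579) or BafA array 2 of 24 h (0.0534), and that of Itgb1bp3 without BafA array 2 of 24 h (0.0693).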

How the results depend on the processing

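Of 4412 values of named genes under alternatives, 4043 kept direction and side of the threshold, 273 lost the call, 89 gained one and 7 changed sign. The local background, which follows the spot signal itself (Pearson r across probes 0.963 to 0.982 within arrays), decided most: with it subtracted limma called 0 members at 4 h, at 24 h, in the difference of the effects and over time in controls (1, 13, 6 and 14 at an unadjusted p under 0.05), and the 7 sign changes are Adamts4 (-0.17), Col5a3 (-0.095) and Timp1 (-0.24) over time, and Itga7 (-0.13), Lama2 (-0.058), Mmp17 (-0.037) and Mmp25 (-0.028) at 24 h, none of them called there. At 4 h, against 4 members called, there were 2 without the variance trend, 2 among probes over 25, 0 by the methods' t-test after adjustment and 17 at its unadjusted threshold, and in the deposited values 4 rose and 0 fell. At 24 h, against 40, there were 23 among probes over 25, 0 by the methods' t-test after adjustment and 25 before it. Over time in controls, against 34, there were 21 among probes over 25, 2 by the adjusted t-test and 25 before adjustment. Leaving out single arrays gave 1 to 7 at 4 h, 25 to 37 at 24 h, 14 to 21 for the difference and 27 to 34 over time. The lowest at 24 h, 25, came without BafA array 1 of 24 h. At 4 h there was 1 call without control array 1 or BafA array 2 of 4 h, 2 without either of the other arrays of 4 h or either BafA array of 24 h, and 7 without either control array of 24 h. The replicate block gave 5, 37 and 19 members for 4 h, 24 h and the difference, and crossed pairing, chosen after seeing the data, gave 2, 37 and 16. Neither of these pairings gives the change over time in controls, while the scan setting as a block called 37 members there. With 61 members under the median signal, differences of dim genes are understated by the offset. The cause of these losses was not tested.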
